A study of Mus musculus with 6 samples.

Results

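Primary granule and promyelocyte genes are described here in Kit-positive bone marrow cells of Ints11 conditional knockout (KO) and wild-type (WT) mice. They are 10 genes, taken by symbol from the 24062 gene symbols of the count table: Mpo, Elane, Prtn3, Ctsg, Ms4a3, Plac8, Gstm1, Serpinb1a, Cst7 and Nkg7. All 10 were found and all 10 passed the filter on low counts. The RNA-seq libraries come from bone marrow of C57BL/6 mice sorted for Kit, the receptor of stem cell factor, with 1 mouse per library. The 3 KO mice carried floxed Ints11 alleles and Mx1-Cre, a Cre transgene whose promoter responds to interferon and is active in blood cells and in other tissues such as liver. The 3 WT mice were littermates, and the sources used here do not say whether they carried the transgene. Cells were sorted on day 4 after poly(I:C), an interferon-inducing RNA mimic, a time given for all 6 libraries, and no age is given for the mice. INTS11 is the endonuclease of Integrator, a complex that cleaves nascent RNA, and the comparison asks how its loss bears on progenitor transcripts.

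Neutrophils store antimicrobial proteins in granules that form in sequence. Primary (azurophil) granules fill at the promyelocyte stage with myeloperoxidase and serine proteases, secondary granules fill at the myelocyte stage, and the genes for the primary content are switched off as cells mature. The same genes are already active in granulocyte-macrophage progenitors, where the factors PU.1, C/EBP, RUNX1 and MYB drive them, so their transcripts mark this step of differentiation in Kit-positive marrow.

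The serine protease genes Elane and Prtn3 lie next to each other, 3072 bp apart, on chromosome 10, and Ctsg lies on chromosome 14. Their sequences just before the RefSeq transcription start (GRCm38.p6, the assembly of mm10) are printed here. These genes all fell, and Elane and Prtn3 share an arrangement of short motifs that Ctsg lacks. Whether the motifs bear on the falls was not tested. The windows are chr10:79886192-79886311 (forward strand) for Elane, chr10:79879547-79879666 (forward strand) for Prtn3 and chr14:56102575-56102694 (reverse strand) for Ctsg. Each holds the 120 bases before the start, 5′ to 3′. GENCODE M21 begins Elane at 79886247, inside its window, and Prtn3 at 79874476, before its window. The Elane and Prtn3 windows thus lie partly or wholly inside the GENCODE genes. Distances given below hold for the RefSeq start only. Capitals mark matches on either strand to AGGAAGT (PU.1), AACGG (MYB), TGTGGT (RUNX), TTNNGNAA (C/EBP) and TATAA (the TATA box), which do not overlap here.
Elane: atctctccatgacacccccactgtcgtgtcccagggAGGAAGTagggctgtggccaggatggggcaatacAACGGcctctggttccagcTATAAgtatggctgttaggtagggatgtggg
Prtn3: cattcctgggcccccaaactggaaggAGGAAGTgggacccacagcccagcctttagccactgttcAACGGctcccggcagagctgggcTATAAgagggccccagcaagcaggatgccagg
Ctsg: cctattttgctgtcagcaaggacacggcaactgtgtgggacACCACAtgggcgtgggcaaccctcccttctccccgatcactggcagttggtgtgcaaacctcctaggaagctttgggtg
In Elane the PU.1 letters begin 84 bases, the MYB letters 50 bases and the TATA letters 31 bases before the start, and in Prtn3 they begin 94, 55 and 32 bases before it. Of 32851 RefSeq start windows of this length, 4.27% hold the PU.1 letters, 7.59% the MYB letters, 11.8% the TATA letters, 6.72% the RUNX letters and 17.95% the C/EBP letters, and 13 windows hold the PU.1, MYB and TATA letters together. Of the 9 members with a window, 3 hold the PU.1 letters (Elane, Prtn3, Cst7), 3 the RUNX letters (Ctsg, Plac8, Nkg7) and 1 the C/EBP letters (Ms4a3). The windows of Mpo and Gstm1, which also fell, hold no match to any of these letters. The letters were chosen after the sequences were seen, and a match describes the sequence and not a bound site.

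Of the 10 genes, 9 fell in the KO libraries, 0 rose and 1, Serpinb1a, did not pass the test (adjusted p under 0.05 in the quasi-likelihood test of edgeR, Benjamini-Hochberg adjusted over 15742 tested genes). The falls ranged from 0.49 on the log2 scale for Nkg7 to 1.42 for Gstm1, and 6 genes were at least 2-fold lower. Over all tested genes 19.9% were called lower and 16.0% higher, and 1.12% were called at least 2-fold lower. Of all calls 55.5% were thus lower, against 35.8% under upper-quartile scaling and 41.2% when only library totals were used, and 9 of the 10 genes were called lower with each. Strongly expressed genes were called lower more often, 37.9% of the 2482 tested genes with a mean of at least 100 CPM (counts scaled to a common library total after TMM normalization). Of these, 7.53% were called higher and 1.05% at least 2-fold lower. The median log2 change was -1.08 over the 10 genes and 0.01 over all tested genes. For the same 9 genes the highest KO library was below the lowest WT library, as they did for 28.4% of all tested genes and 49.8% of those with a mean of at least 100 CPM. The reverse order held for 25.6% and 13% of these genes and for 0 of the 10. In bulk RNA, fewer cells of a type and less RNA per cell cannot be told apart.

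**Figure D1:**
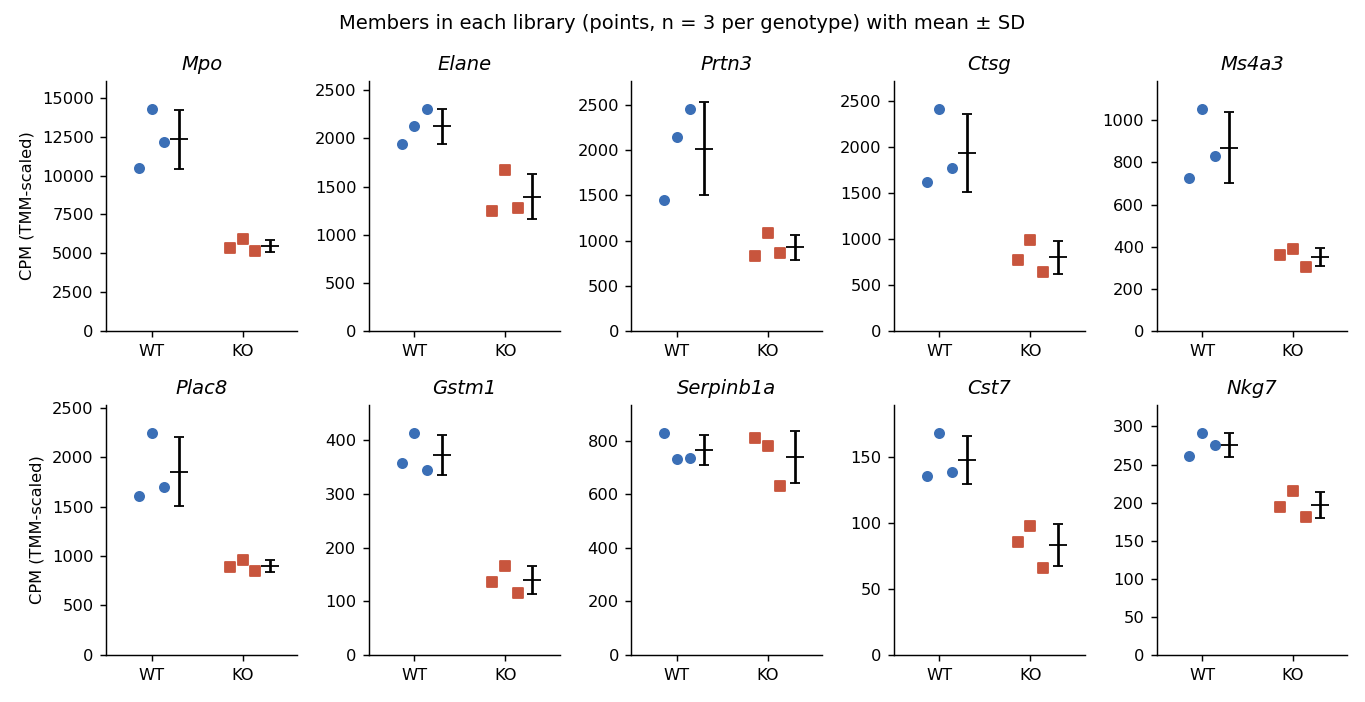
TMM-scaled CPM (vertical axis, from 0) of the 10 genes in each of the 3 WT (blue circles) and 3 KO (red squares) libraries, with the mean ± SD in black. Every gene but Serpinb1a has its 3 KO libraries below its 3 WT libraries.

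Total counts ran from 124074531 to 166860739 per library. Ints11, listed under its older symbol Cpsf3l, was at 81.7 ± 9.59 CPM in WT and 60.96 ± 3.08 CPM in KO libraries (SD, n = 3 each; log2 change -0.42, adjusted p = 0.0174 in edgeR's quasi-likelihood test). That call was lost without KO_340 or KO_345, and with the level of mature neutrophil genes as a covariate. Reads over exons outside the floxed part also count for Ints11. The sorted antigen Kit was between 199 and 238 CPM in every library, and its change did not pass (log2 change 0.11, adjusted p = 0.269 in edgeR's test). The lineage antigens Cd3e, Cd4 and Cd8a were at most 4.65 CPM in every library, whereas the myeloid antigen gene Itgam was between 285 and 845 CPM, in a population that the series text also calls lineage-negative. WT_341 stood apart from the other WT libraries on the second principal component (59.6 against -28.5 and -15.6), and without it the same 9 of the 10 genes were called lower. By Xist and Y-linked counts the males were WT_341 in the WT group and KO_339 and KO_340 in the KO group.

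Myeloperoxidase, the haem enzyme that makes hypochlorous acid and the most abundant primary granule protein, was the most highly expressed of the 10 genes, and it fell. Mpo was at 10493, 14288 and 12172 CPM in WT_341, WT_343 and WT_344 and at 5338, 5937 and 5147 CPM in KO_339, KO_340 and KO_345. The highest KO library was thus far below the lowest WT library. The fitted KO level was 44.4% of WT (95% interval 34.8 to 56.7%; log2 change -1.17 ± 0.15, SE; adjusted p = 0.00345, edgeR's quasi-likelihood test). Mpo alone took between 1.04% and 1.35% of all counts in WT libraries and between 0.541% and 0.615% in KO libraries. By counts it ranked between 1 and 3 of all genes in the WT libraries and between 8 and 10 in the KO libraries.

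The serine protease genes of the set, Elane, Prtn3 and Ctsg, all fell. Elane, which encodes neutrophil elastase, was at 1946, 2126 and 2306 CPM in WT_341, WT_343 and WT_344 and at 1242, 1668 and 1279 CPM in KO_339, KO_340 and KO_345. The groups did not overlap, with KO_340 the closest to WT. The fitted KO level was 65.7% of WT (95% interval 52.3 to 82.5%; log2 change -0.61 ± 0.14, SE; adjusted p = 0.0168, edgeR's quasi-likelihood test). The call for Elane was lost without WT_344, KO_339 or KO_345, with adjusted p-values between 0.000408 and 0.185 over 15 alternatives.

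Prtn3 encodes proteinase 3, a close relative of elastase. It was at 1450, 2146 and 2455 CPM in WT_341, WT_343 and WT_344 and at 825, 1088 and 860 CPM in KO_339, KO_340 and KO_345, with WT_341 the lowest of the WT libraries. The KO level was 45.8% of WT (95% interval 32.8 to 64.1%; log2 change -1.13 ± 0.21, SE; adjusted p = 0.00849, edgeR's test). Ctsg encodes cathepsin G, the chymotrypsin-like protease of the granule. It was at 1626, 2416 and 1769 CPM in the WT libraries and at 769, 994 and 645 CPM in the KO libraries, with WT_343 the highest and KO_345 the lowest. The KO level was 41.5% of WT (95% interval 29.7 to 57.8%; log2 change -1.27 ± 0.21, SE; adjusted p = 0.00596, edgeR's test).

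Ratios of raw counts inside a library need no scaling between libraries. The count ratio of Prtn3 to Elane was 0.745, 1.01 and 1.07 in the WT libraries and 0.664, 0.652 and 0.673 in the KO libraries. The ratio of Ctsg to Elane was between 0.767 and 1.14 in WT and between 0.505 and 0.619 in KO libraries, and that of Mpo to Elane between 5.28 and 6.72 in WT and between 3.56 and 4.30 in KO libraries. Each of these 3 ratios was lower in every KO library than in any WT library. The 95% intervals of the log2 changes of Elane, Prtn3, Ctsg and Mpo overlapped one another, and these ratios were not tested.

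Inhibitors of the proteases did not share one behaviour. Serpinb1a encodes a cytosolic serpin that inhibits elastase, proteinase 3 and cathepsin G. It was at 831, 733 and 735 CPM in WT_341, WT_343 and WT_344 and at 811, 779 and 630 CPM in KO_339, KO_340 and KO_345, so the groups overlapped. The log2 change was -0.05 ± 0.12 (SE; adjusted p = 0.761 in edgeR's test). The 95% interval ran from 79.7 to 117% of the WT level, and the change turned sign under 5 of the 15 alternatives, with no call under any. That interval lay apart from those of 7 of the other 9 genes and overlapped those of Elane and Nkg7. The count ratio of Elane to Serpinb1a was between 2.34 and 3.14 in WT and between 1.53 and 2.14 in KO libraries. The ratio of Mpo to Serpinb1a was between 12.6 and 19.5 in WT and between 6.58 and 8.17 in KO libraries.

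Cst7 encodes cystatin F, an inhibitor of lysosomal cysteine proteases such as cathepsin C, the enzyme that activates the granule serine proteases. It was at 136, 169 and 139 CPM in WT_341, WT_343 and WT_344 and at 85.7, 97.6 and 66.2 CPM in KO_339, KO_340 and KO_345. The groups did not overlap, and the KO level was 56.3% of WT (95% interval 43.9 to 72.1%; log2 change -0.83 ± 0.15, SE; adjusted p = 0.00859, edgeR's test). Nkg7 encodes a membrane protein of cytotoxic granules that is also transcribed in myeloid progenitors. It was at 261, 292 and 276 CPM in the WT libraries and at 194, 216 and 181 CPM in the KO libraries. It had the smallest change among the genes that fell, to 71.4% of WT (95% interval 61.8 to 82.4%; log2 change -0.49 ± 0.09, SE; adjusted p = 0.00834, edgeR's test).

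Nkg7 and Cst7 are also expressed in T and NK cells, whose defining markers were low. Cd3e was at most 0.592 CPM, Prf1 at most 4.06 CPM and Ncr1 at most 6.97 CPM in any library. Of 18 listed T and NK cell genes, 9 were called higher and 0 lower, with Cd3g (log2 change 2.17), Eomes (2.14), Prf1 (1.72) and Cd247 (1.31) having the smallest adjusted p-values (the call of Prf1 was lost without WT_344). For comparison, 16.0% of all tested genes were called higher and 19.9% lower. None of the 18 genes was at 0 in any library, and their summed level ran from 28.8 to 41.8 CPM in WT and from 45.9 to 107 CPM in KO libraries. Cd3e was among the 9 that were not called (adjusted p = 0.152, edgeR's test).

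The other genes, Ms4a3, Plac8 and Gstm1, mark progenitors without being granule proteases, and all 3 were called at least 2-fold lower. Ms4a3, a tetraspan protein gene of granulocyte-monocyte progenitors, was at 728, 1054 and 830 CPM in WT_341, WT_343 and WT_344 and at 363, 390 and 303 CPM in KO_339, KO_340 and KO_345. The KO level was 40.4% of WT (95% interval 31.3 to 52.3%; log2 change -1.31 ± 0.16, SE; adjusted p = 0.00327, edgeR's test). Plac8, which encodes a small cysteine-rich protein of myeloid cells, was at 1604, 2250 and 1699 CPM in the WT libraries and at 887, 962 and 845 CPM in the KO libraries. The KO level was 48.5% of WT (95% interval 38.4 to 61.4%; log2 change -1.04 ± 0.15, SE; adjusted p = 0.00419, edgeR's test).

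Gstm1, a cytosolic glutathione S-transferase gene, had the largest fall. It was at 358, 414 and 344.3 CPM in WT_341, WT_343 and WT_344 and at 136, 166 and 116 CPM in KO_339, KO_340 and KO_345, with no overlap. The KO level was 37.5% of WT (95% interval 29.8 to 47.2%; log2 change -1.42 ± 0.14, SE; adjusted p = 0.00223, edgeR's test). Its family members are similar in sequence, and reads could be split between them in counting. Of the relatives tested, Gstm4 fell from 14.1 ± 2.00 to 9.65 ± 0.955 CPM (log2 change -0.55, adjusted p = 0.0233 in edgeR's test, a call lost without any single library other than WT_341), and Gstm2, Gstm5 and Gstm7 stayed at or below 6.97 CPM in every library and were not called.

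**Figure D2:**
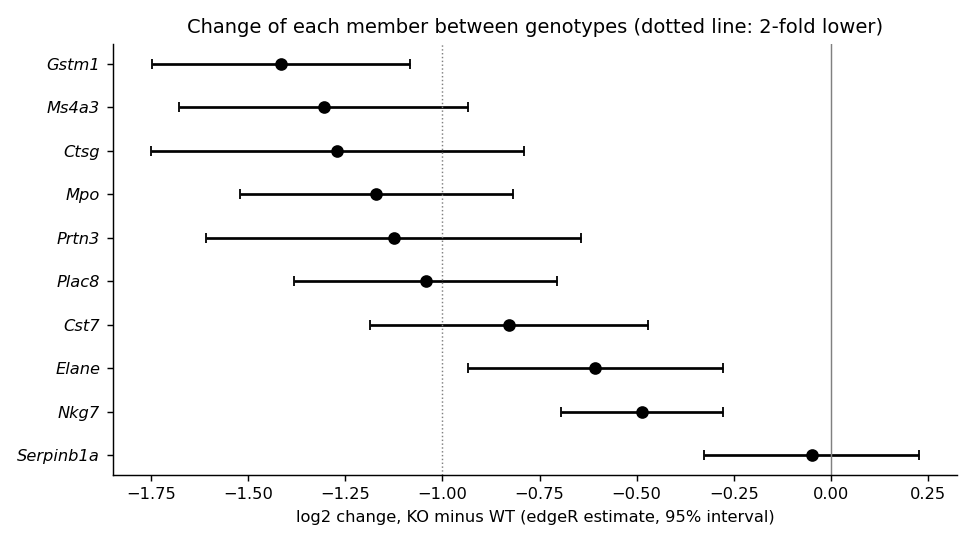
Log2 change from WT to KO (horizontal axis) with its 95% interval for the 10 genes, ordered by size, with 0 as the solid line and a 2-fold fall as the dotted line. The interval of Serpinb1a spans 0 and those of the other 9 lie below 0.

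Levels of different genes were compared per kilobase of annotated exon. In WT libraries Mpo was highest at 3597 ± 555 CPM per kb, followed by Elane at 2161 ± 183, Ctsg at 1875 ± 408, Prtn3 at 1165 ± 297 and Plac8 at 1163 ± 219 CPM per kb. Below them were Ms4a3 at 462 ± 88.5, Serpinb1a at 333 ± 24.2, Nkg7 at 302 ± 17.1, Gstm1 at 253 ± 25.2 and Cst7 at 150 ± 18.4 CPM per kb (SD, n = 3 each). Within this order, Elane and Ctsg, Prtn3 and Plac8, and Serpinb1a and Nkg7 did not differ beyond their spread.

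The order differed in part in the KO libraries. The ranges of Mpo at 1599 ± 120 and Elane at 1419 ± 240 CPM per kb overlapped there, with 1559, 1734 and 1503 CPM per kb for Mpo against 1263, 1696 and 1300 CPM per kb for Elane. Within each KO library Mpo was still above Elane. Ms4a3, at 187 ± 23.7 CPM per kb, was below Serpinb1a (321 ± 42.0) in every KO library and above it in every WT library. Prtn3 takes a long annotated exon length of 1732 bp, so its level per kb depends on the gene model.

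The 10 genes together took 1.93%, 2.45% and 2.17% of all counts in WT_341, WT_343 and WT_344 and 1.09%, 1.27% and 1.06% in KO_339, KO_340 and KO_345. Their mean share was 2.19 ± 0.261% in WT and 1.14 ± 0.117% in KO libraries, and Mpo made up 54.3 ± 0.843% of it in WT and 49.8 ± 1.44% in KO libraries. The part of Serpinb1a in the summed counts was 3.45 ± 0.745% in WT and 6.73 ± 0.766% in KO libraries. The part of Elane was 9.46 ± 1.08% in WT and 12.6 ± 0.952% in KO libraries. Within WT, WT_341 had the lowest level of 8 of the 10 genes and WT_343 the highest of 7, and within KO, KO_340 had the highest level of 9.

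Neighbouring genes on the same chromosome moved in different directions. Prss57, the gene for neutrophil serine protease 4, lies 83514 bp from Prtn3 and fell further than any of the 10 genes, from 165, 236 and 198 CPM in the WT libraries to 62.8, 67.7 and 58.9 CPM in the KO libraries (log2 change -1.66 ± 0.14, SE; adjusted p = 0.00130, edgeR's test). Between and beside these proteases, the splicing repressor gene Ptbp1 fell (log2 change -0.49, adjusted p = 0.0171, a call lost without WT_344, KO_339 or KO_345), and Palm (0.03), Cfd (0.31) and Med16 (0.11) were not called. Kiss1r (1.57), at no more than 2.92 CPM, and Arid3a (0.27, adjusted p = 0.0470), whose call was lost without any single library other than WT_341, were higher (edgeR's quasi-likelihood test in each case). Arid3a was also not called with sex as a covariate. Of 9 tested genes around Elane and Prtn3, 2 were called lower and 2 higher, with a median log2 change of 0.18. These counts are near the shares over all tested genes, 19.9% lower and 16.0% higher.

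The peroxidase genes on chromosome 11 also split. Lpo, which encodes lactoperoxidase and lies 2014 bp from Mpo, was at 8.72, 9.22 and 10.1 CPM in WT and 3.02, 5.51 and 3.02 CPM in KO libraries (log2 change -1.28 ± 0.25, SE; adjusted p = 0.0105, edgeR's test). Epx, the eosinophil peroxidase gene 59586 bp from Mpo, was between 318 and 355 CPM in WT and at 886, 737 and 974 CPM in KO libraries (log2 change 1.35 ± 0.12, SE; adjusted p = 0.00144, edgeR's test). Epx was therefore higher in every KO library while Mpo and Lpo were lower. On chromosome 14, Mcpt8, a basophil protease gene 14607 bp from Ctsg, was higher (log2 change 0.50, adjusted p = 0.0448, edgeR's test). That call was lost without WT_343, WT_344, KO_339 or KO_340, and with sex as a covariate.

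**Figure D3:**
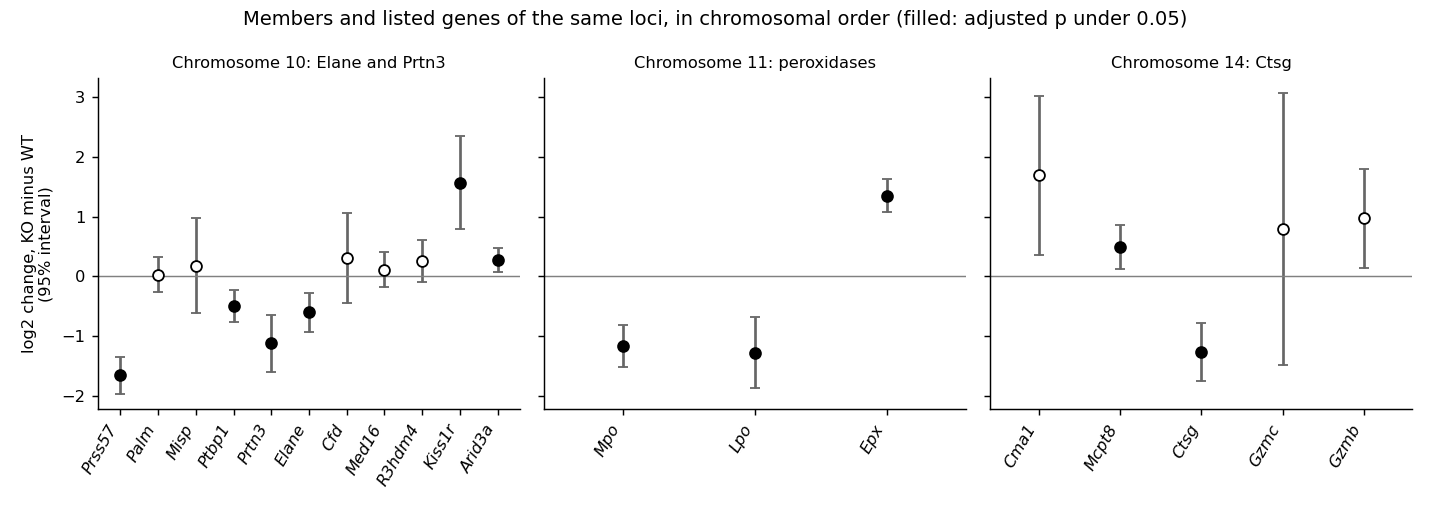
Log2 change from WT to KO with its 95% interval (vertical axis) for listed genes of the 3 loci in chromosomal order, filled where the adjusted p is under 0.05. Prss57, Prtn3, Elane, Mpo, Lpo and Ctsg lie below 0, and Epx and Mcpt8 lie above it.

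Other members of the same gene families showed both directions. Of the other Ms4a genes tested, Ms4a6c fell by 1.25 and Ms4a6b by 0.80 on the log2 scale, the latter a call lost when the level of mature neutrophil genes was added as a covariate. Ms4a6d (log2 change -0.48), Ms4a1 (0.95) and Ms4a4b (0.73) were not called, and Ms4a2, the mast cell and basophil member, rose by 0.68, a call lost without WT_344, KO_339 or KO_340. Serpinb10, a clade B serpin gene, rose from 7.71 ± 4.87 to 32.6 ± 9.76 CPM (log2 change 2.08, adjusted p = 0.0155, edgeR's test), a call lost without WT_344 or KO_339. The closest copies of Serpinb1a, Serpinb1b and Serpinb1c, had at most 11 counts in any library and were not tested. Of 22 tested family members, 4 were called lower and 5 higher, near the shares over all tested genes (19.9% lower and 16.0% higher).

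Of 15 listed genes for the activation, folding and packaging of granule proteins, 9 fell and 0 rose, with a median log2 change of -0.46. The shares over all tested genes were 19.9% lower and 16.0% higher. Among tested genes with a mean of at least 100 CPM they were 37.9% and 7.53%. Calr encodes calreticulin, a chaperone that binds the myeloperoxidase precursor in the endoplasmic reticulum. It fell from 1683, 2785 and 2091 CPM in the WT libraries to 946, 962 and 889 CPM in the KO libraries (log2 change -1.23 ± 0.18, SE; adjusted p = 0.00467, edgeR's test). Its partner calnexin (Canx) fell by 0.71, serglycin (Srgn), the proteoglycan that holds proteases in the granule, by 0.71, and the AP-3 adaptor subunit gene Ap3b1 by 0.46 on the log2 scale. G6pc3, a glucose-6-phosphatase gene whose loss causes neutropenia, fell by 1.10. The neutropenia genes Jagn1 (-0.63) and Hax1 (-0.86) and the AP-3 subunit genes Ap3s1 (-0.46) and Ap3d1 (-0.30) completed the 9. Calls were lost without KO_339 for Jagn1, Hax1, Ap3s1 and Ap3d1, without KO_340 for Hax1 and Ap3d1, and without WT_344 or KO_345 for Ap3s1 and Ap3d1. Ap3d1 was also not called with upper-quartile scaling or library totals. Ctsc, which encodes cathepsin C, was at 101 ± 34.5 CPM in WT and 63.1 ± 17.8 CPM in KO libraries and did not pass (adjusted p = 0.107, edgeR's test), and it passed without WT_341 or with DESeq2.

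Other granule proteins did not move as one. Of 16 listed genes, 5 fell and 2 rose, with a median log2 change of -0.02, beside 19.9% lower and 16.0% higher over all tested genes. Besides Prss57, the hexosaminidase subunit gene Hexa (-0.69), the beta-glucuronidase gene Gusb (-0.64), the alpha-galactosidase gene Gla (-0.57, lost without KO_339 or KO_345) and the sterol carrier gene Npc2 (-0.46) fell. Lyz2, a lysozyme gene of myeloid cells, rose by 1.45 on the log2 scale, with 2162, 523 and 1216 CPM in the WT libraries and 4215, 2986 and 3472 CPM in the KO libraries, and its call was lost without WT_344 or any single KO library. With sex as a covariate Lyz2 was also not called. Bpi rose by 2.47 but was at no more than 0.296 CPM in any library.

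Regulators of the promyelocyte programme also went both ways. Of 15 listed transcription factors and cytokine receptors, 4 fell and 2 rose, with a median log2 change of -0.02. Over all tested genes 19.9% were called lower and 16.0% higher, so these counts do not set the list apart. Cebpe, the C/EBP factor that drives secondary granule genes, rose from 121 ± 20.4 to 212 ± 31.0 CPM (log2 change 0.80, adjusted p = 0.00890), and Cebpd rose by 1.22 (adjusted p = 0.00830; edgeR's quasi-likelihood test for both). Irf8, the factor of the monocyte branch, fell by 1.30, the G-CSF receptor gene Csf3r by 0.61, the common beta receptor chain gene Csf2rb by 0.46 and the M-CSF receptor gene Csf1r by 0.90, the last a call lost without WT_343, WT_344, KO_339 or KO_340. Cebpa (log2 change -0.28, 95% interval -0.65 to 0.09), Spi1, the gene of PU.1 (0.19, -0.04 to 0.41), and Gfi1 (0.08, -0.26 to 0.41) were not called, although Spi1 was called higher with upper-quartile scaling or library totals. Myb was not called either (-0.25, adjusted p = 0.105, edgeR's test), and it passed without WT_341, as did Cebpa.

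**Figure D4:**
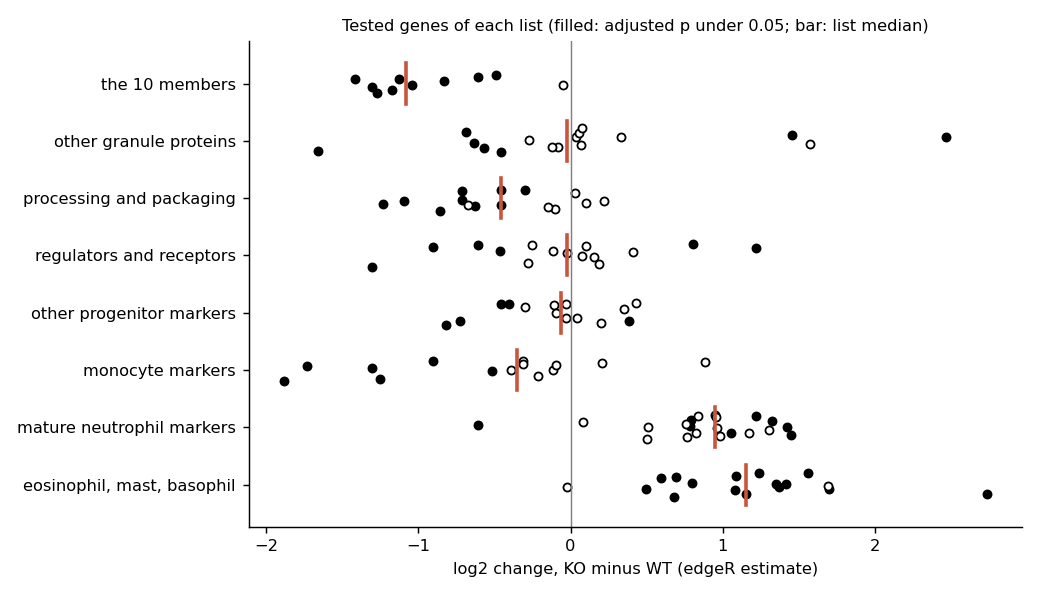
Log2 change from WT to KO (horizontal axis) of every tested gene in 8 lists, filled where the adjusted p is under 0.05, with a red bar at each list's median. The 10 genes have a median of -1.08, the mature neutrophil list one of 0.95, and the other granule proteins lie on both sides of 0.

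Markers of later and of other cell types differed between the same libraries. Of 21 tested mature neutrophil genes, which mark stages after the promyelocyte, 7 rose and 1 (Csf3r) fell, with a median log2 change of 0.95. Among all tested genes 16.0% were called higher and 19.9% lower. Olfm4 (1.42), Mmp9 (1.22) and Lcn2 (1.33) had the smallest adjusted p-values of the 7 that rose. All 3 calls were lost without KO_339 or KO_345, and those of Mmp9 and Lcn2 also without WT_344 or KO_340. The defining secondary granule genes Ltf (1.31, adjusted p = 0.0739) and Ngp (1.17, adjusted p = 0.112) were higher in all 3 KO libraries than in all 3 WT libraries without passing, and Camp (1.45) passed (adjusted p = 0.0447, edgeR's quasi-likelihood test), a call lost without WT_344 or any single KO library. Camp was also not called with sex as a covariate. Ltf passed without WT_341 or WT_343, and Ngp without WT_341. No gene of this list was at 0 in any library.

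The summed level of the mature neutrophil list was 41353, 14065 and 24819 CPM in WT_341, WT_343 and WT_344 and 64060, 49899 and 49131 CPM in KO_339, KO_340 and KO_345. The 10 primary granule and promyelocyte genes summed to 19431, 25888 and 22725 CPM in the same WT libraries and to 10653, 12299 and 10074 CPM in the KO libraries. WT_341, the WT library with the most neutrophil transcripts, thus had the lowest summed level of the 10 genes in WT. Beside KO_340 it had 41353 against 49899 CPM in the neutrophil sum and 19431 against 12299 CPM in the sum of the 10 genes. These are 1 library of each genotype that differ in both sums, and the pair was not tested. With the level of the neutrophil list as a covariate, 4 of the 10 genes were called lower, Mpo (log2 change -0.83), Ms4a3 (-0.93), Plac8 (-0.68) and Gstm1 (-1.26). The other 6 were not called in that fit, Elane at -0.47, Prtn3 at -0.67, Ctsg at -0.83, Cst7 at -0.62, Nkg7 at -0.36 and Serpinb1a at -0.23. The covariate overlaps with genotype, and a lost call in it does not show what the change is due to.

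**Figure D5:**
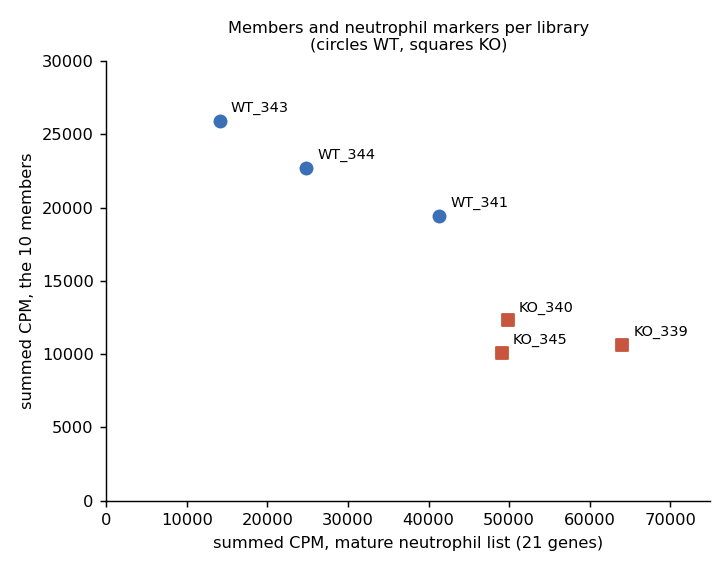
Summed CPM of the mature neutrophil list (horizontal axis) against summed CPM of the 10 genes (vertical axis) in the 6 libraries, WT as blue circles and KO as red squares. The 3 KO libraries lie below all WT libraries on the vertical axis and to their right on the horizontal axis.

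Monocyte markers fell in 6 of 14 tested cases with 0 higher (median log2 change -0.35), among them Ccr2 (-1.88), the chemokine receptor of monocytes, and F13a1 (-1.73). Of 17 tested eosinophil, mast cell and basophil genes 15 rose and 0 fell (median 1.15). Beside the list counts of this paragraph stand 19.9% called lower and 16.0% called higher over all tested genes. Summed levels ran from 2112 to 2308 CPM in WT and from 1323 to 1438 CPM in KO libraries for monocyte genes, and from 1661 to 2266 CPM in WT and from 4178 to 4767 CPM in KO libraries for the eosinophil, mast cell and basophil list. Of 14 other progenitor markers 4 fell, Clec12a (-0.73), Hk3 (-0.40), Lgals1 (-0.82) and Cd48 (-0.46), and 1 rose, the stem and progenitor antigen gene Cd34 (0.38). Single libraries decided the calls of Hk3 (lost without WT_344, KO_340 or KO_345), Lgals1 (without any but WT_341), Cd48 (without WT_343, WT_344, KO_340 or KO_345, and with upper-quartile scaling) and Cd34 (without WT_343, WT_344, KO_339 or KO_340). Cd34 was also not called with sex as a covariate. The part of a changed mix of cell types in the fall of the primary granule genes was not tested.

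Over the 6 libraries, the genes outside the set whose log2 CPM was most like the mean standardised profile of the 10 genes were Dbi (Pearson's r = 0.999), Mad1l1, Sec22a, Iqgap2 and Dtymk (0.996), of 10177 genes with a mean of at least 5 CPM. With 6 points that share the genotype split, these values are a description. Dbi, the acyl-CoA-binding protein gene, was at 96.1, 112 and 102 CPM in WT and at 63.8, 69.8 and 56.02 CPM in KO libraries. Among the 10 genes themselves, r with their mean profile ran from 0.935 (Prtn3) to 0.998 (Nkg7) for 9 genes and was 0.350 for Serpinb1a. That mean includes each gene itself, so these r values are partly built in.

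Positions in GENCODE M21 (GRCm38), 1-based, are as follows. Mpo spans 87793581 to 87804413 on chromosome 11, forward strand, and an antisense gene model, Gm11505, overlaps it on the other strand. Elane spans 79886247 to 79888215 and Prtn3 79874476 to 79883174 on chromosome 10, both on the forward strand, and the first 159 bp of the annotated Prtn3 gene overlap the opposite-strand gene Plppr3. Ctsg spans 56099881 to 56102574 on chromosome 14, reverse strand. Serpinb1a spans 32842092 to 32851185 on chromosome 13 and Ms4a3 11629496 to 11640851 on chromosome 19, both on the reverse strand. Gstm1 (chromosome 3, 108012255 to 108017973) and Plac8 (chromosome 5, 100553725 to 100572245) lie on the reverse strand, and Cst7 (chromosome 2, 150570415 to 150578944) and Nkg7 (chromosome 7, 43437073 to 43438249) on the forward strand. All 10 are protein-coding genes, and reads over their exons, UTRs included, count for them.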

How the data were processed

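Read counts per gene symbol were deposited by the authors, 1 column per library, as raw counts with no normalization. Per the submitters' processing notes, FastQC, Trimmomatic, STAR and HTSeq were used (no versions given) with the build mm10; per the labels' protocols the libraries were strand-specific messenger RNA libraries read as pairs of 75 bp. For the gene annotation, the strand option of the counting and the handling of multi-mapped reads, nothing is stated.

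Tests of genotype used edgeR 4.0.16 (R 4.3.3): filterByExpr (minimum count 10, minimum total 15), TMM factors, robust glmQLFit and glmQLFTest over all 6 libraries, Benjamini-Hochberg adjustment over all tested genes, threshold 0.05. SE and 95% intervals come from that fit. Replicates are separate mice, and no pair of libraries of a group agreed within sampling noise (chi-square per degree of freedom at least 51.3). The labels name no batch and share no replicate numbers between genotypes. The same fit was also run on counts simulated from the observed means and library totals, and no result here rests on that run.

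The members, gene lists and rule for named genes were chosen with earlier results of these data known. Named are the 10 genes, up to 4 genes per list with the smallest adjusted p, markers and neighbours, and the 5 genes closest in profile (log2 of CPM plus 0.1); further called list members were named after their values were seen. Alternatives were other scalings, DESeq2 1.42.0, limma-voom (limma 3.58.1), other filters, single libraries left out, and sex or the mature neutrophil level as a covariate. Of the listed genes, Ly6g, Ighm and Plppr3 could not be matched. RefSeq held a start window for 9 of the 10 genes. Further lists gave these calls, higher and lower: erythroid 1 and 1 of 15, megakaryocyte 6 and 0 of 12, stem cell 9 and 0 of 14, lymphoid 1 and 0 of 13, macrophage 1 and 0 of 14, and sorting antigens 2 and 0 of 9. Beside them stand 16.0% higher and 19.9% lower over all tested genes.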

Additional observations from a re-analysis of the deposited data

How the results depend on the processing

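Of 150 values of the 10 genes over 15 alternatives, 137 kept their direction and their side of the threshold, and 8 calls were lost, 5 with the mature neutrophil covariate (Elane, Prtn3, Ctsg, Cst7 and Nkg7) and 3 for Elane without WT_344, KO_339 or KO_345. The count of genes of the set called lower was 4 with that covariate and between 8 and 9 with single libraries left out, and 0 were called higher under any alternative. Over all genes, 1011 were called with the neutrophil covariate (5659 without it) and between 2302 (without KO_339) and 7879 (without WT_341) with single libraries left out; the median SE was 0.149 without and 0.181 with the covariate. Upper-quartile scaling and library totals moved the median log2 change of all genes to 0.15 and 0.11 and that of the 10 genes to -0.94 and -0.98, and 35.8% and 41.2% of all calls were then lower, against 55.5% with TMM. The share of counts taken by the 10 genes was 0.521 of the WT share in KO libraries, and 0.491 to 0.555 with single libraries left out.

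Signs turned, with no call before or after, for Serpinb1a (0.083 with upper-quartile scaling, 0.047 with library totals, 0.022 with at least 1 CPM in 3 libraries, and -0.090 to 0.081 with single libraries left out, positive without WT_341 or KO_345), Gfi1 (-0.064 to 0.24 with single libraries left out, negative without KO_340, and -0.0045 with sex as a covariate), Palm (-0.084 to 0.15 with single libraries left out, negative without WT_341 or KO_340), and with the neutrophil covariate for Ctsc (0.11), Cebpa (0.087), Ltf (-0.19) and Ngp (-0.33). Ltf, Ngp and the other named mature neutrophil genes are part of the mean used as that covariate. Their changes with it are partly built in. Of 56 other named genes that were called, 13 kept their call under every alternative and 0 changed sign. Lost with the neutrophil covariate alone were the calls of Npc2, Gusb, Bpi, Canx, Srgn, Cebpd, Cebpe, Kiss1r, Lpo, Ms4a6b, F13a1, Eomes, Cd3g, Dbi and Dtymk. The remaining named genes that lost a call under some alternative, Ints11 among them, also lost it with that covariate, except Gla and Prf1. The calls of Itgam, Cd34, Lyz2, Camp, Mcpt8 and Arid3a were lost with sex as a covariate. The cause was not tested. No paired analysis was possible because the genotypes share no replicate numbers. For genes with many counts, counting error is small beside the spread between 3 mice per genotype, which limits the precision. For genes with few counts, such as Bpi (6, 5 and 9 counts in WT_341, WT_343 and WT_344), counting error matters as well.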
